A study of Mus musculus with 7 samples.

Results

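The bone morphogenetic protein (BMP) pathway and the Id proteins were represented by 10 genes, Id1, Id2, Id3, Id4, Bmp4, Bmpr1a, Smad1, Smad6, Grem1 and Bambi. They were chosen as BMP pathway genes and Id targets linked to lung metastasis. All probe sets whose only annotated gene symbol was one of the 10 were taken, which gave 19 of the 22626 probe sets on the array that are not controls, for 10 of 12393 genes with a probe set of their own. Expression was measured in total RNA of transplanted mouse tumours on 1-colour Affymetrix arrays, 3 from the Met1 line and 4 from the DB7 line, with no treatment named. Both are mammary tumour lines from mice carrying a polyoma middle T transgene, which is known to be driven by the mouse mammary tumour virus promoter in mammary epithelium. Met1 is known to metastasise readily and DB7 seldom, and the transgene of DB7 is known to carry changed docking sites for PI3K. Each group therefore holds transplants of 1 established line, and what sets the lines apart cannot be told apart from the form of the transgene. The labels give no age, sex or host strain and do not say whether the arrays stand for different animals, so the spread between arrays may be partly technical.

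BMP ligands are secreted dimers that bring together type I and type II receptor kinases. The type I receptor phosphorylates Smad1 and its close relatives, which join Smad4 and enter the nucleus, where the Id genes are among their direct targets. Id proteins have a helix-loop-helix domain without the basic region that contacts DNA, so they pair with E proteins such as Tcf3, Tcf4 and Tcf12 and keep them from their E-box sites. In the mammary gland Id2 is known to be needed for alveolar development in pregnancy, and Id1 and Id3 are known for a part in lung colonisation by breast cancer cells.

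Among the 10 genes, Id2 was higher in Met1, Bambi was lower, and Smad1 was lower by 1 of its probe sets. For Id1, Id3, Id4, Bmp4, Bmpr1a, Smad6 and Grem1 no probe set passed the threshold. All values are log2 probe set summaries, and differences are Met1 minus DB7 with their standard errors (SE), tested with limma over all probe sets above the array median on at least 3 of the 7 arrays at an adjusted p under 0.05. Of the 19 probe sets, 10 passed this intensity filter, for 5 of the 10 genes, and 4 of the 10 passed the test, 2 higher and 2 lower in Met1. Over the array, 31% of 11704 tested probe sets passed, 13.4% higher and 17.6% lower, so the members' share lay near that of all probe sets. The lower call of Smad1 entered the test only through its DB7 values. The median difference was -0.09 over the members' 10 tested probe sets and -0.04 over all tested probe sets. Without the filter, 3 of the 19 were higher and 2 lower in Met1, against 7.92% and 9.87% (17.8% in all) of all 22626. Values of the lines did not overlap for 9 of the 19, against 27.5% of all probe sets. The 9 were those of Id1, Id2, Smad6 and Bambi, 1 of Smad1, and 2 of Bmpr1a that went opposite ways.

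The stretch upstream of the transcription start is shown for Id2 and Smad1, members with a probe set past the threshold. It is also shown for Id3, an Id gene whose values overlapped between the lines. Bambi passed the threshold as well, but its stretch was left out. The sequences are RefSeq's of build GRCm38.p6, cover the 250 bases before the start, and are given 5′ to 3′ on the gene's strand. Capitals mark GGCGCC, a GC-rich motif known to be bound by Smads of the BMP branch, AGAC or GTCT, the core bound by Smads in general, and CANNTG, the E-box. All were searched on both strands, and none of the marked matches overlapped another. The windows lie at chr12:25096093-25096342 (minus strand), chr4:136143572-136143821 (plus strand) and chr8:79399429-79399678 (minus strand).
Id2: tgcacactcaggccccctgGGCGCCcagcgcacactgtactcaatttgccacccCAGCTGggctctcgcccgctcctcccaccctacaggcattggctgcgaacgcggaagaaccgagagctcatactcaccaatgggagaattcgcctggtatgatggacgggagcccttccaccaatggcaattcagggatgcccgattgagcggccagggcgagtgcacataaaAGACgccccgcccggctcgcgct
Id3: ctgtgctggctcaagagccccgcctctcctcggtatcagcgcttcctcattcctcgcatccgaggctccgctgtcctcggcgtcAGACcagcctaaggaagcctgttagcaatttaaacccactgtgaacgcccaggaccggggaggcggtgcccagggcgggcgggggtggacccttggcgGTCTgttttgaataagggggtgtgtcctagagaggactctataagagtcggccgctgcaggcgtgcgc
Smad1: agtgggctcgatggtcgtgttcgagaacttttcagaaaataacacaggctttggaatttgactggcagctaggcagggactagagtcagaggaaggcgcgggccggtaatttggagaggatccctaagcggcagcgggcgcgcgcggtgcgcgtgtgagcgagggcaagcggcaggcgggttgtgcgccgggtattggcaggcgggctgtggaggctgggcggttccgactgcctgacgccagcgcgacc
The Id2 window held 1 GGCGCC, which began 231 bases before the start, 1 E-box at 196 bases and 1 AGAC at 23 bases. The Id3 window held AGAC or GTCT at 166 and 68 bases, with 0 matches to the other motifs, and the Smad1 window held 0 matches to any of them. Over 32851 windows of the same length in the table, GGCGCC was present in 9.59%, AGAC or GTCT in 82.9% and CANNTG in 66.2%. Among the 8 members whose windows were used, 4 held GGCGCC, 5 held AGAC or GTCT and 2 held CANNTG. These matches are descriptions of the letters only.

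Id2, which blocks E proteins, was higher in Met1 by every one of its 3 probe sets. The brightest, 1422537_a_at, measured 10.67, 10.50 and 10.53 on the Met1 arrays and 10.004, 10.07, 9.69 and 9.34 on the DB7 arrays. Every Met1 array lay above every DB7 array, and DB7 4 was the lowest. The difference was 0.80 (SE 0.17), or 1.74-fold, with a 95% confidence interval of 0.42 to 1.17 (limma, adjusted p = 0.00698). The probe set 1435176_a_at measured 9.62, 9.46 and 9.23 in Met1 against 7.81, 8.71, 8.02 and 7.61 in DB7. Again the lines did not overlap, and the DB7 arrays spread more widely, with DB7 2 standing above the other DB7 arrays. Its difference was 1.40 (SE 0.23), or 2.64-fold (limma, adjusted p = 0.00221). The dim probe set 1453596_at lay above the array median on 1 array and was not tested with the others. It measured 6.48, 6.38 and 6.70 in Met1 and 5.82, 6.04, 6.12 and 5.90 in DB7, also without overlap, a difference of 0.55 (SE 0.11; limma without the filter, adjusted p = 0.00703). The sizes thus differed between the probe sets of this gene while the direction was shared. Both tested probe sets passed in every fit that included them, with an adjusted p of at most 0.0363.

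Id2 lies on chromosome 12, where many genes were higher in Met1. Of the 252 tested genes of this chromosome, each taken at its brightest tested probe set, 125 were higher and 11 lower in Met1, and the median difference was 0.35. The 10 nearest tested genes, 5 on each side in the RefSeq order of GRCm38.p6, held 5 that were higher and 1 that was lower, with a median of 0.33 and a range of -0.63 to 1.34. At 0.80, Id2 ranked number 43 of the 252 from the highest. Its excess thus stood among many of the same direction on this chromosome, and the part of the chromosome-wide shift in the difference of Id2 was not tested.

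Id1, the Id protein most often named in lung colonisation, was measured by 1 probe set, 1425895_a_at. It read 6.81, 7.31 and 6.86 in Met1 and 6.71, 6.57, 6.59 and 6.68 in DB7. The lines did not overlap, but the gap was narrow, and Met1 2 stood above the other Met1 arrays. The difference was 0.36 (SE 0.12), with an interval of 0.08 to 0.64, and did not pass the threshold (limma, adjusted p = 0.0573). It passed under quantile normalization (adjusted p = 0.0485) and without Met1 1 (adjusted p = 0.0462), and without Met1 2 the difference was 0.20 (adjusted p = 0.162). Met1 2 also had the highest Met1 means of the epithelial, macrophage, fibroblast and adipocyte marker lists. Those of the last 2 were 9.63 and 7.46, against 8.92 to 9.24 and 5.75 to 6.79 on the other Met1 arrays, and those of the first 2 were 10.17 and 8.35, against 9.86 to 10.02 and 8.19 to 8.32. Met1 3 was the highest Met1 array for the endothelial (6.99, against 6.95 on Met1 2) and pericyte lists (7.67, against 7.56). Met1 2 was the lowest Met1 array for the B cell list (6.09) and the T and NK cell list (6.093, against 6.097 on Met1 3). The part of these cells in the Id1 value of Met1 2 was not tested. In a bulk tumour, fewer cells of a type and less RNA per cell cannot be told apart.

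Id3 and Id4 lay below the array median on all 7 arrays. Id3 (1416630_at) measured 6.16, 6.23 and 6.23 in Met1 and 6.47, 5.85, 5.92 and 6.22 in DB7. The Met1 values lay inside the DB7 range, in which DB7 1 and DB7 4 were high and DB7 2 and DB7 3 low. The difference was 0.09 (SE 0.14), with an interval of -0.22 to 0.41 (limma without the filter, adjusted p = 0.701). The same pair of DB7 arrays had the higher DB7 means of all 7 lists of other cell types, stromal and immune. For 9 endothelial markers these were 7.23 and 6.92 against 6.53 and 6.59, and for 5 B cell markers 7.65 and 8.06 against 6.27 and 6.49. Of these markers Tek and Tie1 (endothelial) and Cd79a and Cd79b (B cell) lay below the median on all arrays, and in Met1 the lists lay at 6.74 to 6.99 and 6.09 to 6.34. The part of these cells in the Id3 values was not tested. Id4, an Id protein of basal mammary cells, had 3 probe sets, of which the brightest, 1423260_at, measured 5.88 to 6.13 in Met1 and 5.67 to 6.08 in DB7. Differences of the 3 lay between -0.12 and 0.09, all with overlap, and every interval fell within -0.31 to 0.33.

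**Figure D1:**
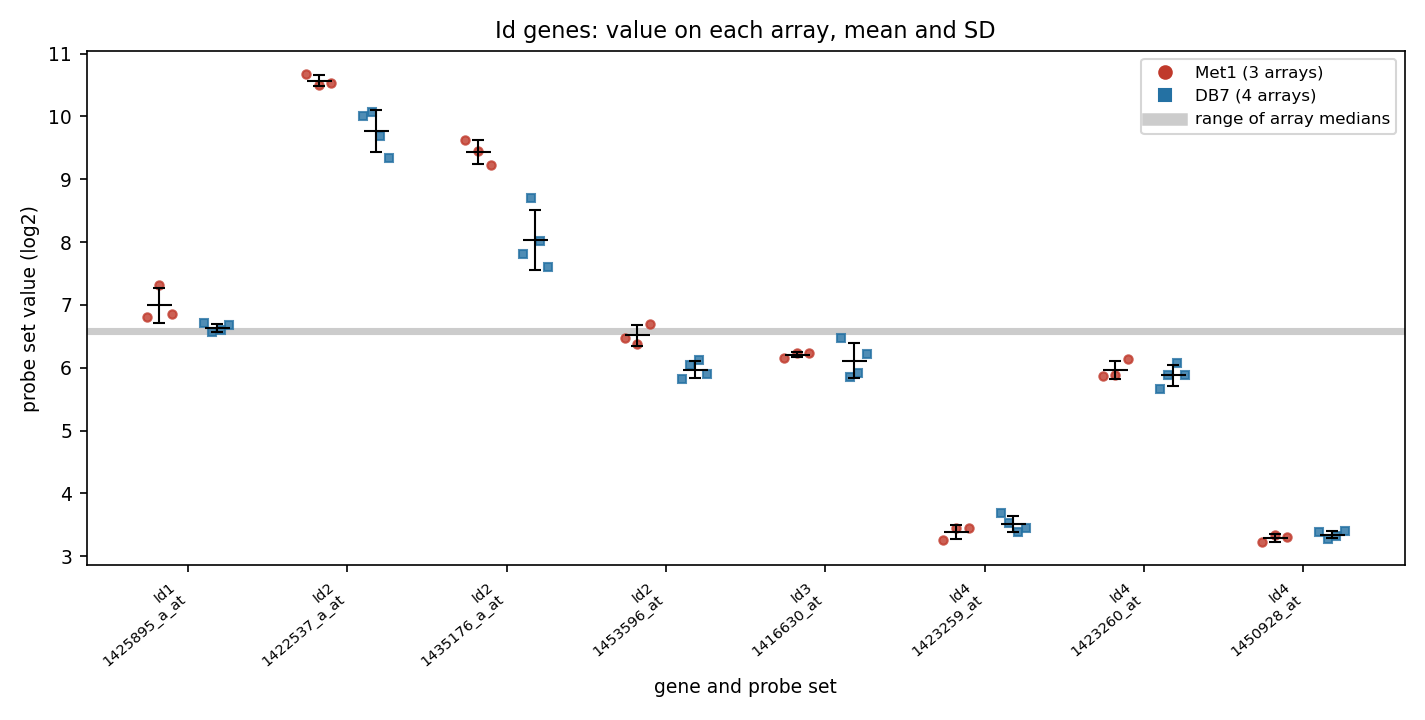
Log2 value of every Id probe set on each array (circles Met1, n = 3; squares DB7, n = 4; bars mean ± SD), with the range of array medians in grey. The Met1 and DB7 values of Id2 do not overlap at any of its 3 probe sets, whereas Id3 and Id4 overlap and lie below the grey band.

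Bmp4, the BMP ligand among the members, was dim on every array. It measured 5.77, 5.84 and 6.06 in Met1 and 6.14, 5.61, 5.74 and 5.84 in DB7. The lines overlapped fully, and DB7 1 was the highest array. The difference was 0.06 (SE 0.13), with an interval of -0.23 to 0.35 (limma without the filter, adjusted p = 0.805). Grem1, a secreted antagonist that binds BMP ligands, was also below every array median, at 5.14 to 5.18 in Met1 and 5.01 to 5.39 in DB7. Its difference was -0.07 (SE 0.09), with an interval of -0.28 to 0.15. At such levels, small differences may be compressed.

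Bmpr1a, a type I receptor of BMP ligands, had 5 probe sets that pointed in both directions, and none passed. The brightest, 1425492_at, measured 8.34, 8.21 and 8.35 in Met1 and 8.06, 8.15, 8.13 and 8.06 in DB7. Every Met1 array was above every DB7 array here, by 0.20 (SE 0.08; limma, adjusted p = 0.0752). The probe set 1425493_at measured 7.43, 7.44 and 7.25 in Met1 and 7.84, 7.69, 7.50 and 7.50 in DB7. Here every Met1 array was below every DB7 array, a difference of -0.26 (SE 0.10; adjusted p = 0.0888). Those of the other 3 were -0.18 (1425491_at), -0.01 (1425494_s_at) and 0.17 (1451729_at), each with overlap. The gene therefore had no single direction over its probe sets. The brightest passed under median centring (adjusted p = 0.0395) and with array weights (adjusted p = 0.0467).

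Smad1, the transcription factor that carries the BMP signal, was lower in Met1 at 1416081_at. This probe set measured 6.13, 6.11 and 6.14 in Met1 and 6.78, 6.76, 6.71 and 6.76 in DB7. The values within each line lay close together, with an SD of 0.02 in Met1 and 0.03 in DB7, and were well separated between the lines. The difference was -0.63 (SE 0.07), or 1.54-fold, with an interval of -0.79 to -0.46 (limma, adjusted p = 0.000312). It lay above the array median in DB7 and below it in Met1, so it entered the test only through the line in which it is high. Without the filter it also passed (adjusted p = 0.000285). The brighter probe set 1448208_at measured 7.40, 7.31 and 7.45 in Met1 and 7.62, 7.79, 7.39 and 7.97 in DB7. DB7 3 lay within the Met1 range, and the difference of -0.31 (SE 0.13) did not pass (adjusted p = 0.102). Without DB7 3 it was -0.41 and passed (adjusted p = 0.0263), so the size and the call depended on the probe set. Smad1 lies on chromosome 8, where 34 of 401 tested genes were higher and 65 lower in Met1. Among its 10 nearest tested genes 1 was higher and 5 were lower, with a median of -0.38 against -0.06 over the chromosome, and the part of this neighbourhood was not tested.

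Smad6, an inhibitory Smad that is itself induced by BMP signalling, measured 6.18, 5.997 and 6.06 in Met1 and 6.35, 6.23, 6.32 and 6.45 in DB7. The lines did not overlap, although all 7 values lay below the array medians. The difference was -0.26 (SE 0.08), with an interval of -0.44 to -0.08, and it did not pass in the fit without the filter (adjusted p = 0.0562). Bambi, a pseudoreceptor without a kinase domain that dampens TGF-beta and BMP signals and is induced by them, was lower in Met1. It measured 7.42, 7.07 and 6.96 in Met1 and 7.66, 7.86, 7.49 and 7.47 in DB7. The lines did not overlap, but Met1 1 came within a small step of DB7 3 and DB7 4. The difference was -0.47 (SE 0.13), or 1.39-fold, with an interval of -0.77 to -0.17 (limma, adjusted p = 0.0257). The call was lost without Met1 2 (-0.43, adjusted p = 0.0985), without Met1 3 (-0.38, adjusted p = 0.113) or without DB7 2 (-0.39, adjusted p = 0.0526). Bambi lies on chromosome 18, where 19 of 182 tested genes were higher and 36 lower in Met1. Of the 7 tested genes within 5 places of it, 0 were higher and 0 lower. Their median was -0.04, against -0.06 over the chromosome.

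**Figure D2:**
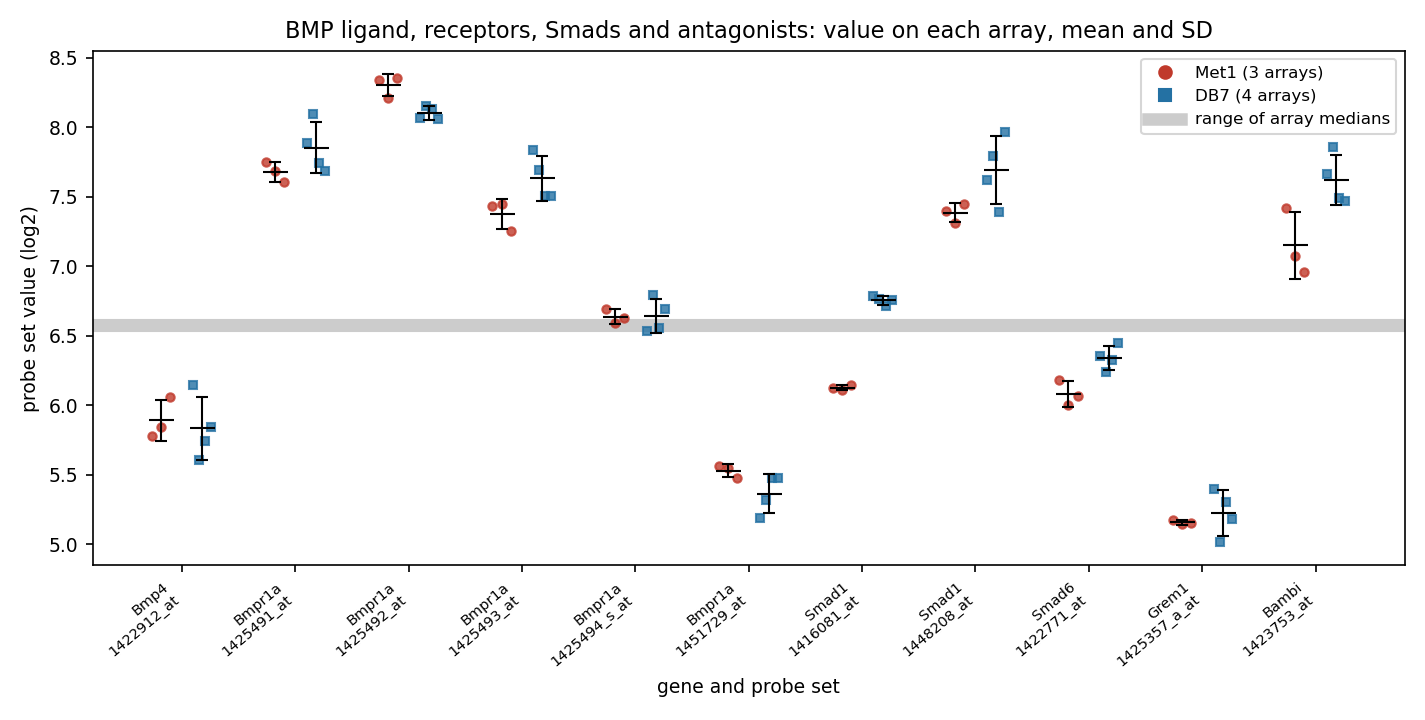
Log2 value of every probe set of the ligand Bmp4, the receptor Bmpr1a, Smad1, Smad6 and the antagonists Grem1 and Bambi on each array (circles Met1, n = 3; squares DB7, n = 4; bars mean ± SD), with the range of array medians in grey. Smad1 1416081_at separates the lines most tightly, with Met1 at 6.11 to 6.14 and DB7 at 6.71 to 6.78, and the probe sets of Bmpr1a go both ways.

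**Figure D3:**
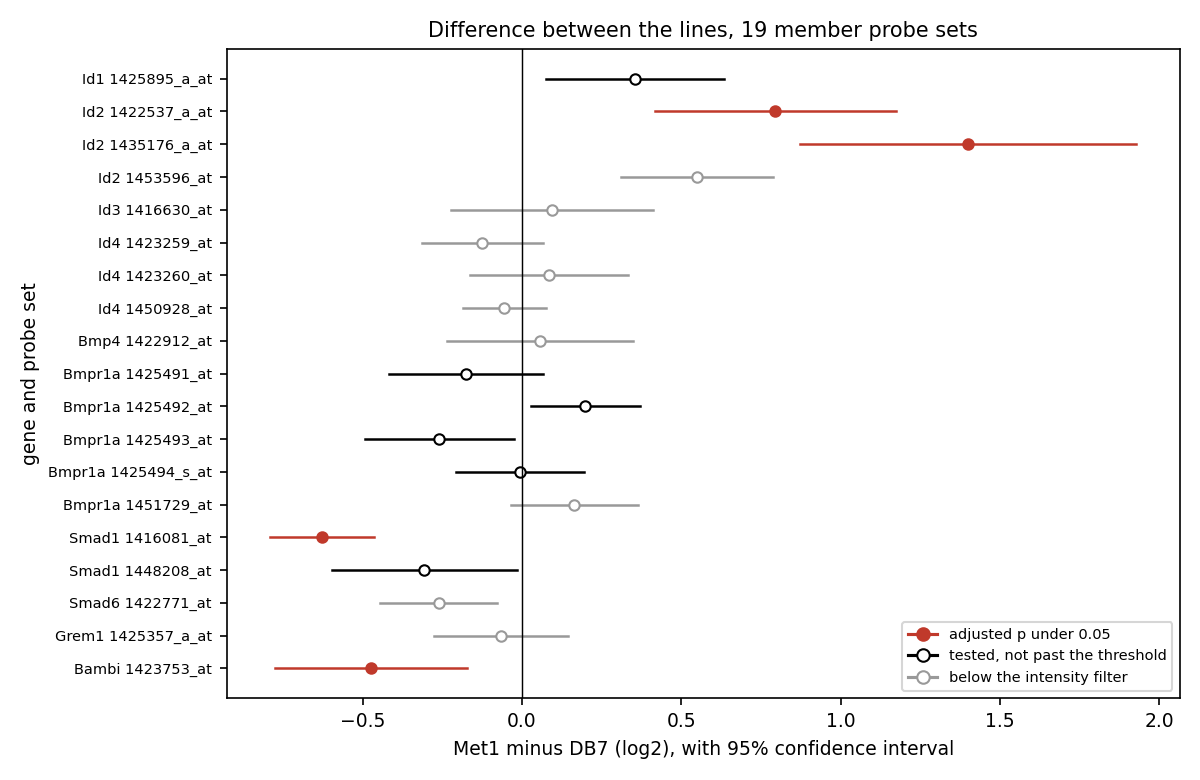
Met1 minus DB7 on the log2 scale for all 19 probe sets of the 10 genes, with limma's 95% confidence interval. The filled points, past an adjusted p of 0.05, are 2 of Id2 above 0 and 1 each of Smad1 and Bambi below 0; grey probe sets lay below the intensity filter and come from the fit without it.

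A wider list of 61 other BMP genes, from ligands to the E proteins that Id proteins bind, had probe sets of their own for 48. Of these, 28 had a tested probe set, and 5 of the 28 were higher and 5 lower in Met1. Over the array, 1151 of 7745 tested gene symbols, joint symbols included, were higher and 1594 lower, each by any of its probe sets. Of the list's 43 tested probe sets, 11 passed (25.6%, against 31% of all tested probe sets), 5 higher and 6 lower. The median difference of the 43 was -0.002. Without Met1 1, 3 were higher and 1 lower, without Met1 2, 4 and 1, without Met1 3, 2 and 3, and without DB7 3, 4 and 3. Without DB7 1 and DB7 4, 8 of 41 tested were higher and 3 lower, against 1642 and 1808 of all 11324 tested. Counts over all tested probe sets, 1566 higher and 2060 lower, fell as well when these single arrays were left out. They were 1006 and 1566 without Met1 1, 1057 and 1266 without Met1 2, 1030 and 1276 without Met1 3, and 1340 and 1617 without DB7 3. The counts of this list thus varied with the arrays used, as did those of all probe sets, though not always alike. Without DB7 1 and DB7 4 the higher count went from 5 to 8 in the list and from 1566 to 1642 over all.

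Among 12 listed BMP ligands only 3 genes were tested. Gdf5, a ligand known from joint and cartilage formation, measured 6.14, 6.45 and 6.40 in Met1 and 6.62, 6.96, 6.67 and 6.83 in DB7. It was lower in Met1 (difference -0.44, SE 0.11; limma, adjusted p = 0.0174), entered the test only through its DB7 values, and lost the call without Met1 1 (adjusted p = 0.0661). Bmp7, a ligand of epithelial tissues, differed by -0.18 (SE 0.09; adjusted p = 0.175) at its tested probe set. At 1418910_at, which lay below every array median, Bmp7 measured 4.51, 4.87 and 4.36 in Met1 and 5.71, 5.38, 5.88 and 6.34 in DB7. These values did not overlap, and DB7 4 was the highest. The difference was -1.25 (SE 0.21; limma without the filter, adjusted p = 0.00328), the largest in size of any probe set in the wider list. At 1432410_a_at Bmp7 differed by -0.51 (adjusted p = 0.00831 without the filter). This gene was named for these dim probe sets after their values had been seen.

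None of the 3 tested receptor genes among 10 listed passed in limma, nor any of their 4 tested probe sets at an unadjusted p under 0.05. Named by smallest p, Acvr1, a type I receptor, differed by -0.17 (SE 0.09; adjusted p = 0.17) and Eng, an endothelial co-receptor, by 0.13 (SE 0.11; adjusted p = 0.41). Of 5 tested genes among 16 secreted antagonists and modulators, Fstl3, a follistatin-like protein that binds activin, was higher by 0.29 (SE 0.09; adjusted p = 0.0391). That call was lost in 5 of 7 fits that left out 1 array, namely without Met1 1, Met1 3, DB7 2, DB7 3 or DB7 4, with adjusted p up to 0.134. Twsg1, which binds BMP and chordin, did not pass, with differences of 0.22 to 0.38 at its 3 tested probe sets. Of the 3 tested Smads none passed in limma, and 0 of their 5 probe sets had an unadjusted p under 0.05. Smad7, an inhibitory Smad, differed by -0.13 (SE 0.10) and Smad4, the partner shared by all branches, by -0.07 to 0.15 over 3 probe sets.

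Intracellular regulators went both ways, with 3 of 6 tested genes higher and 2 lower in Met1. Over the array, 1151 of 7745 tested gene symbols were higher and 1594 lower. By probe set, 5 of 11 tested in this group passed (45.5%, against 31% of all tested probe sets). Ppm1a, a phosphatase that acts on Smads and like Id2 lies on chromosome 12, was higher by 0.61 (SE 0.12; limma, adjusted p = 0.00595) at 1415678_at. It measured 8.92, 8.86 and 8.87 in Met1 and 8.33, 8.56, 8.21 and 8.004 in DB7, without overlap, while its other tested probe set differed by 0.30 and did not pass. Tob1, an antiproliferative protein that represses BMP Smads in mouse osteoblasts, was higher by 0.64 (SE 0.13; adjusted p = 0.00624). It measured 8.82, 8.97 and 8.86 in Met1 and 7.92, 8.23, 8.52 and 8.30 in DB7, again without overlap. Ppm1a and Tob1 passed in all 7 fits that left out 1 array. Fkbp1a, which holds type I receptors inactive, was higher at 1 of 4 tested probe sets (0.46, SE 0.12; adjusted p = 0.0186), a call lost without Met1 2 or Met1 3 (adjusted p up to 0.0837). Skil, a Smad corepressor, was lower (-0.32, SE 0.09; adjusted p = 0.0315), a call lost without Met1 2, Met1 3, DB7 3 or DB7 4 (up to 0.131). Stub1, a ubiquitin ligase, was lower at 1416580_a_at (-0.34, SE 0.11; adjusted p = 0.0478), a call kept only without DB7 1 among those fits (up to 0.17). At its other tested probe set, 1434412_x_at, the lines overlapped, and the difference of -0.25 (SE 0.12; limma, adjusted p = 0.141) did not pass.

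Among 5 tested genes of 8 other BMP-induced transcription factors, Hey1, a repressor known as a target of both Notch and BMP, was higher in Met1. It measured 10.09, 9.72 and 9.98 in Met1 and 9.36, 9.39, 9.71 and 9.18 in DB7, where Met1 2 and DB7 3 nearly met. The difference was 0.52 (SE 0.14; limma, adjusted p = 0.0203), and the call was lost without Met1 1 or Met1 3 (adjusted p up to 0.0866). Atoh8, a helix-loop-helix factor, differed by -0.19 (SE 0.08; adjusted p = 0.0849). The E proteins, which Id proteins hold back, had 3 tested genes, of which 2 were lower in Met1 at some of their tested probe sets. By probe set, 3 of 6 tested were lower, against 17.6% of all tested probe sets. Tcf4 measured 7.57, 7.86 and 7.99 in Met1 and 8.29, 8.68, 8.24 and 8.23 in DB7 at 1416724_x_at, a difference of -0.55 (SE 0.14; adjusted p = 0.0169). It was also lower at 1424089_a_at (-0.65, adjusted p = 0.0233), but not past the threshold at its other tested probe set (-0.27, adjusted p = 0.169). At the dim 1434148_at, which was not tested with the others, the difference had the other sign, 0.39 (SE 0.17; limma without the filter, adjusted p = 0.163). Both Tcf4 calls were lost without Met1 1 or Met1 2 (adjusted p up to 0.097). Tcf12 was lower at 1 of 2 tested probe sets (-0.28, SE 0.08; adjusted p = 0.0289) and lost the call without any 1 of the Met1 arrays or without DB7 3 (up to 0.119). Tcf3 differed by 0.05 (SE 0.13; adjusted p = 0.779).

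**Figure D4:**
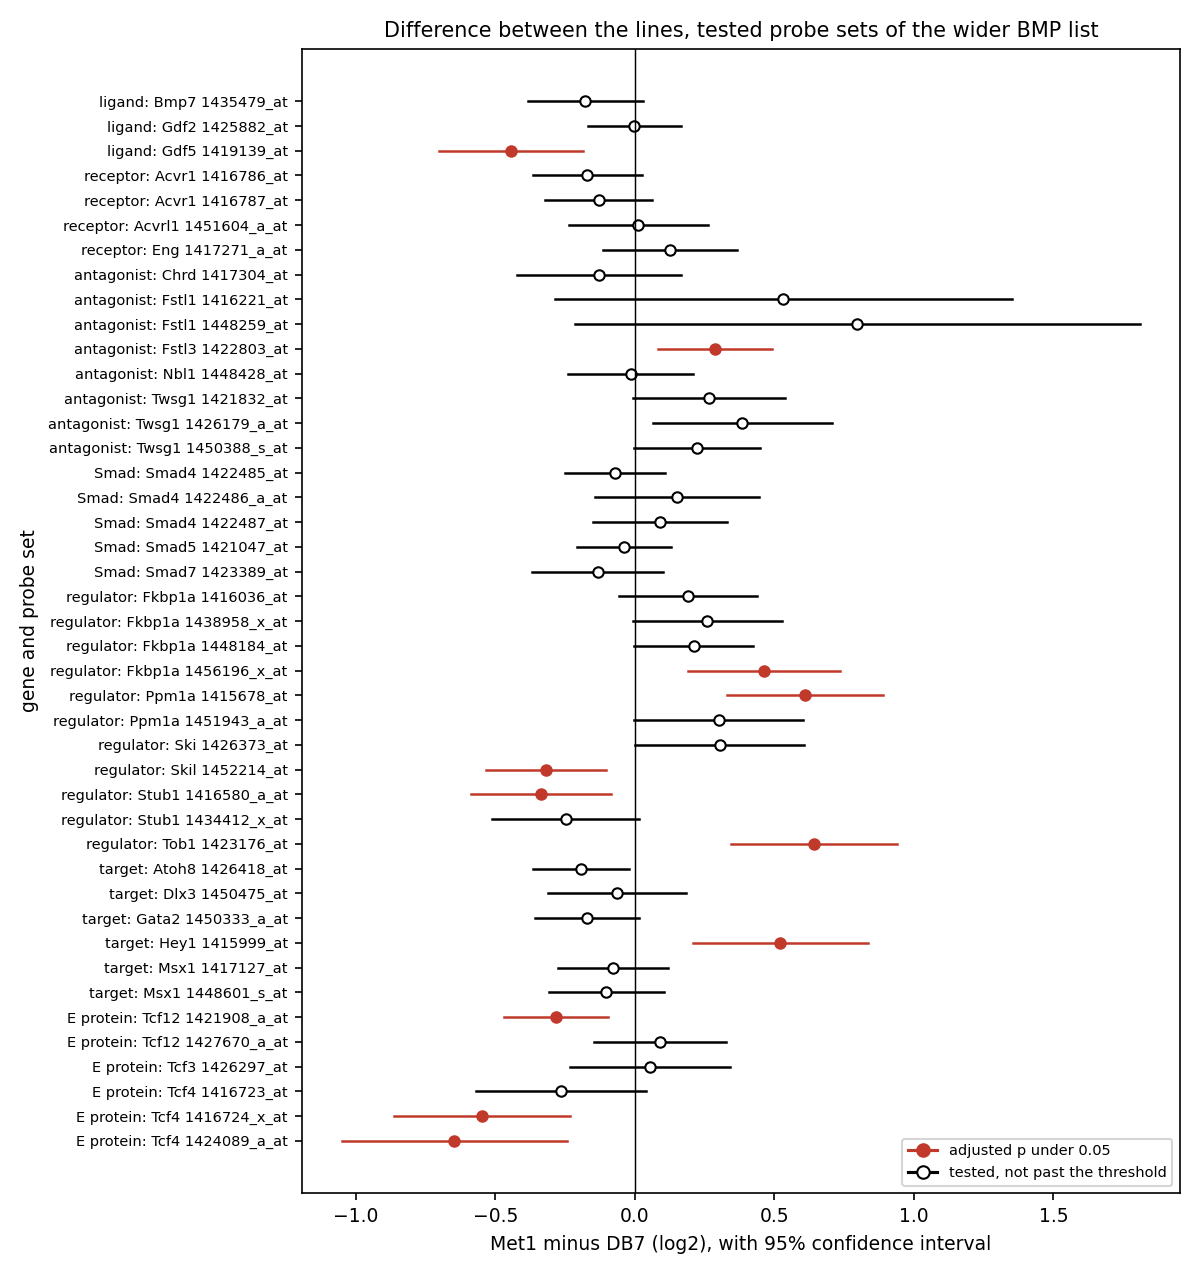
Met1 minus DB7 on the log2 scale for the 43 tested probe sets of the wider BMP list, with limma's 95% confidence interval, ordered by role. Filled points passed an adjusted p of 0.05; 5 lie above 0 and 6 below, with Tob1 and Ppm1a the highest of them and Tcf4 the lowest.

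The genes whose centred values over the 7 arrays lay nearest to those of Id2 (1422537_a_at) were Plin2, a lipid droplet coat protein, and Nupr1, a stress-induced nuclear protein. Their root mean square distances were 0.12 and 0.13 on the log2 scale, among 7481 other genes. Their differences of 0.64 and 0.76 were largely fixed by this choice and are given without a test. Nearest to Bambi were Pgap2, an enzyme of lipid anchor maturation, at 0.04 and Senp6, a SUMO protease, at 0.05. Nearest to Smad1 at its brighter probe set were Gigyf2 and Ilkap, both at 0.07.

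Arrays of one line correlated at 0.994 to 0.996 in Met1 and at 0.986 to 0.992 in DB7 over all probe sets, and at 0.967 to 0.972 between lines. Gapdh control probe sets at the 3' end minus those at the 5' end, which track RNA integrity, gave -0.32 to -0.23 in Met1 and -0.34 to -0.20 in DB7. Those of Actb gave 0.37 to 0.45 in Met1 and 0.31 to 0.52 in DB7. Of 6 epithelial markers 5 lay above the median on all arrays, so the epithelium of the labelled tumours was well measured, and 3 of 5 tested were lower in Met1. Their mean was 9.86 to 10.17 in Met1 and 10.21 to 10.32 in DB7. Of tested endothelial, fibroblast, B cell and adipocyte markers 0 passed in limma, and at an unadjusted p under 0.05 lay 1 fibroblast marker and 0 of the others. Only 1 of the 5 measured B cell markers was tested, however, and all 5 had a lower mean in Met1, from Ms4a1 (-0.36) to Jchain (-2.10, SE 0.79). Of 4 pericyte markers 2 were higher, of 5 macrophage markers 1 was higher, and of 2 T and NK cell markers 1 was lower in Met1. The fibroblast list was higher in DB7 1 and DB7 4 (means of 9.71 and 9.09) than in the other DB7 arrays (8.47 and 8.04), which in Met1 lay between 8.92 and 9.63. Without these arrays both tested probe sets of Id2 and that of Bambi passed, and Smad1 1416081_at no longer met the intensity filter.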

How the data were processed

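The deposited values have the range and shape of log2 summaries per probe set and were taken as such, because no source used here states the log base. Per the submitters' processing notes, RMA and MAS5 were used, without saying which gave the values. Versions, background correction and detection calls are likewise not given in the sources used here. Such summaries can compress differences near the floor. Exactly equal values on some of the 7 arrays occurred in 42.2% of probe sets, 4 of the members' 19 among them, which can narrow the measured spread. The 64 control probe sets were left out. GEO's platform annotation gave 1 symbol to 20380 of the remaining 22626 probe sets, several to 691 and none to 1555.

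The test of Met1 (n = 3) against DB7 (n = 4) was a two-sided limma fit (limma 3.58.1, R 4.3.3) with line as its single term, an intensity trend in eBayes and Benjamini-Hochberg adjustment over all tested probe sets at a threshold of 0.05. Adjusted p-values of probe sets below the filter come from the same fit over all 22626. The fit was also run on simulated data with independent noise for each probe set and array. Those data carry no variation shared between probe sets, so they do not show how the fit handles it. The labels name transplant tumours whereas the series' design text names outcross tumours, and the labels were followed. Members, gene lists and alternatives were chosen with earlier results of these data known. Named were all members, every gene of the wider list past the threshold, the 2 with the smallest p in each of its groups, and the 2 nearest genes to each member past the threshold. Alternatives covered normalization, the filter, the variance model, array weights, probe set choice, arrays left out and the replicate number as a block. Promoter letters came from the RefSeq table, in which Id1 had no entry. Member windows on chromosome 18, that is of Bambi, were left out, so windows of 8 of 10 members were used. The number of arrays limits the precision.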

Additional observations from a re-analysis of the deposited data

How the results depend on the processing

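Both tested probe sets of Id2 kept their direction and call in every alternative that tested them, at 0.65 to 0.89 (1422537_a_at) and 1.07 to 1.62 (1435176_a_at). So did Smad1 1416081_at, at -0.64 to -0.58. Changes to the filter, the intensity trend or the choice of probe sets leave a difference as it is, so there only the call could change. Leaving out 1 array each gave 2 to 3 member probe sets higher and 1 to 3 lower in Met1, 2 to 7 of the wider list higher and 1 to 6 lower, and 1006 to 1593 of all probe sets higher and 1266 to 2193 lower. Without the probe sets ending in _x_at, _s_at or _a_at, 0 member probe sets were higher, because both tested probe sets of Id2 carry such an ending, 2 of the wider list were lower, and 983 of all were higher and 1319 lower. With 1 probe set per gene, 1 member was higher and 1 lower, 3 of the wider list were lower, and 986 of all were higher and 1362 lower, since fewer were tested. The stricter filter left 2 of 7 tested member probe sets higher and 1 lower, as Smad1 1416081_at was then not tested. Of all 9493 tested with it, 1410 were higher and 1822 lower. Without DB7 1 and DB7 4, 1 member probe set was lower, and 8 of the wider list were higher and 3 lower. Of all 11324 then tested, 1642 were higher and 1808 lower. Without an intensity filter 6 of the wider list's 86 probe sets were higher and 10 lower, against 7.92% and 9.87% of all 22626. Bmpr1a 1425494_s_at, near 0, turned to 0.032 under quantile normalization, 0.031 under median centring and 0.0106 with the replicate block, and ranged from -0.0443 to 0.0430 when 1 array was left out. With the replicate number as a block, 2 member probe sets were higher and 2 lower, 5 of the wider list were higher and 3 lower, and 1315 of all were higher and 1488 lower. DB7 4 has no Met1 array of its number, so the differences of this fit equal those without DB7 4. The numbers share no stated litter or day, and deviations of same-numbered arrays correlated at -0.17, -0.05 and 0.02, so they were not taken as pairs. Where no construction is named, the cause was not tested. The median over all tested probe sets moved from -0.04 to -0.02 and -0.003 under quantile normalization and median centring.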

Other observations

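The type II receptors Acvr2a and Acvr2b, which BMP ligands share with activins, lay close to or below the array medians and were not tested with the other probe sets. At 1419140_at Acvr2b, a type II receptor, measured 5.45, 5.37 and 5.45 in Met1 and 5.93, 5.76, 5.96 and 6.13 in DB7, without overlap. The difference was -0.52 (SE 0.09; limma without the filter, adjusted p = 0.00479). Acvr2a, its close relative, went the other way at 1437382_at, with 6.61, 6.38 and 6.46 in Met1 and 6.30, 6.10, 6.02 and 6.14 in DB7 (0.34, SE 0.09; adjusted p = 0.034), while its other probe set differed by -0.03. Both genes were named after their values had been seen. A second probe set of Skil, 1422054_a_at, was lower in Met1 as the tested one was (-0.53, SE 0.11; adjusted p = 0.00916 without the filter).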
